A study of Mus musculus with 2 samples.

Results

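Imprinted genes are transcribed mainly or solely from the chromosome inherited from 1 parent, and 32 of them were followed here through the cell classes of the embryonic ocular area. The list was chosen by the UMI counts of *Gnas* and *Meg3*, which had differed between the libraries of this series in an earlier look at the same data, so the values of these genes that follow are a description. Of the 32 genes, 30 have a row among the 27998 genes counted, and all 30 had at least 1 UMI in each library. *Rian* and *Peg13* were not analysed here. Cells came from the dissected pair of ocular areas of 1 C57BL/6J embryo at the 26-somite stage (E9.25) per genotype, wild type (WT) or *Mab21l1*-null (KO), and each embryo made 1 library with the 10x Chromium 3′ kit, which tags every captured RNA with a cell barcode and a unique molecular identifier (UMI). The null allele is present in every cell of the embryo, not in the eye alone, and the other embryo carries no engineered allele according to the labels. With 1 embryo per genotype no difference has a replicate check, genotype and embryo cannot be told apart, and no test was made.

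Imprinting is set in the germ line by DNA methylation of control regions, and it is kept through the reprogramming of the early embryo by zinc finger proteins such as ZFP57 that recognise methylated DNA there. Many of the genes are grouped in domains in which a long non-coding RNA is made from 1 parental chromosome and protein-coding neighbours from the other. As a group they are known for the control of growth: *Igf2* and *Dlk1*, from the paternal chromosome, promote growth or hold back differentiation, whereas *Cdkn1c*, *Igf2r*, *Grb10* and *H19*, from the maternal chromosome, restrain growth. In the eye, as in most tissues, *Gnas* makes the stimulatory G protein subunit that couples receptors to adenylyl cyclase.

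The library labelled WT kept 1680 cells with 41880035 UMIs, and the library labelled KO kept 2404 cells with 52430844 UMIs, with medians of 21037 and 18135 UMIs per cell. The libraries shared 15 cell barcodes. *Mab21l1*, the targeted gene, was counted at 20.3 UMIs of every 1000000 (counts per 1000000, CPM) [18.9, 21.7] over all kept cells labelled WT and at 32.5 [31.0, 34.1] over those labelled KO, and in ectoderm-like cells at 88.2 [73.7, 104.8] and 52.9 [40.3, 68.2]. In optic vesicle-like cells *Mab21l1* was at 42.8 CPM in WT and 77.2 CPM in KO. Where the deletion lies against the counted 3′ end was not checked, so this RNA count cannot decide whether the labels are right. The lens genes *Pitx3* and *Maf* had lower levels in KO ectoderm-like cells, at 34.2 and 2.69 and at 131 and 52.9 CPM. These values come from the same libraries and are not a separate check of the labels. Here WT and KO stand here for what the labels say, and every direction rests on those labels. Brackets give exact 95% intervals, which cover counting error only, not the difference between embryos.

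Cells were placed in a class by the mean scaled level of its marker genes, and classes are called "-like" because the names rest on these markers alone. The 7 classes held 296 and 522 optic vesicle-like cells in the libraries labelled WT and KO, 84 and 135 forebrain neural ectoderm-like cells, 429 and 583 mesenchyme-like cells, 70 and 55 ectoderm-like cells, 66 and 106 endothelium-like cells, 38 and 53 erythrocyte-like cells. The neural crest-like class had 40 cells in each library. Of the class markers, 5 of 6 for the optic vesicle and 7 of 8 for the forebrain stood at least 2-fold above all other cells, and every marker of the other 5 classes did. Cells were chosen by these same markers, so this excess is not separate evidence for the class names. In forebrain-like cells the marker *Barhl2* was at 0 and 0.754 CPM in WT and KO, and *Nkx2-1* at 5.41 and 0.377 CPM. *Emx2*, also on the forebrain list, was at 1.08 and 1.13 CPM there and higher in mesenchyme-like cells, at 29.4 and 32.8 CPM. The optic vesicle marker *Lhx2* was at 265 and 223 CPM in optic vesicle-like cells and higher in forebrain-like cells, at 315 and 261 CPM. The ectoderm-like cells join lens placode and surface ectoderm. Among markers of the lens placode, *Pax6* was at 318 and 238 CPM in ectoderm-like cells in WT and KO. *Foxe3* had no UMI in the ectoderm-like cells of either library, which allows up to 2.05 and 2.69 CPM. Macrophage-like cells, 21 and 11, were too few to use, and 37.9% and 37.4% of the cells stayed ungated, among them cells with the pigment genes *Pmel*, *Dct* and *Trpm1*. Globin genes took 0.0204% of the UMIs of optic vesicle-like cells labelled WT and 0.0421% of those labelled KO, and 0.0246% and 0.0770% in endothelium-like cells, so globin RNA was counted outside erythrocyte-like cells at a low share that was higher in KO. Its part in the results was not tested.

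The 32 genes lie on 9 chromosomes (GRCm38), with 14 on chromosome 7. *Gnas* (chr2:174284320-174346744, plus strand) has 24 annotated transcripts from several starts many of which share 3′ exons, so its UMI count sums maternally, paternally and biallelically expressed transcripts. The RefSeq sequences around its most upstream and most downstream annotated starts, each 250 bases before to 50 after the start, are shown because the count cannot tell such starts apart. They hold 16 and 40 CG dinucleotides against a median of 7.0 over all 32851 promoter windows of the reference.
Gnas, chr2:174284070-174284369, plus strand: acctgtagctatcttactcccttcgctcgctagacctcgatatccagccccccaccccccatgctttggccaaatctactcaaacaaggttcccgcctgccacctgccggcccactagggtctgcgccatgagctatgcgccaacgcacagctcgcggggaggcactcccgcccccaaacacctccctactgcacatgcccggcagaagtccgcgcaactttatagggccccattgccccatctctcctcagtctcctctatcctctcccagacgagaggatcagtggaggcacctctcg
Gnas, chr2:174329756-174330055, plus strand: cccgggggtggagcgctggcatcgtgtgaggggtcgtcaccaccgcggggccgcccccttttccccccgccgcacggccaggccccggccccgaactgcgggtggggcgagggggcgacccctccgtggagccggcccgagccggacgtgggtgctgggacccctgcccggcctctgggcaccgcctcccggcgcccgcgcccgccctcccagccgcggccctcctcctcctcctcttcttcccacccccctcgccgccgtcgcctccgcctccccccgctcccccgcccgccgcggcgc
The maternally expressed *Meg3* (chr12:109541001-109571726) and the paternally expressed *Mest* (chr6:30723547-30748465) were searched for TGCCGC on either strand, the core of the sequence that ZFP57 is known to bind when methylated. In the windows below the matches, read as GCGGCA on the strand shown, are in capitals.
Meg3, chr12:109540746-109541045, plus strand: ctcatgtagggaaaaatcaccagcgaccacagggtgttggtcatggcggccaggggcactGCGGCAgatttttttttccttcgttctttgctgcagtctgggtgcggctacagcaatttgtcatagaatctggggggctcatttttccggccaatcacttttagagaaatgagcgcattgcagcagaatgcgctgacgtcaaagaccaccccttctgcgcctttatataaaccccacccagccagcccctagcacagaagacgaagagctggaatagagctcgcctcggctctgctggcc
Mest, chr6:30737800-30738099, plus strand: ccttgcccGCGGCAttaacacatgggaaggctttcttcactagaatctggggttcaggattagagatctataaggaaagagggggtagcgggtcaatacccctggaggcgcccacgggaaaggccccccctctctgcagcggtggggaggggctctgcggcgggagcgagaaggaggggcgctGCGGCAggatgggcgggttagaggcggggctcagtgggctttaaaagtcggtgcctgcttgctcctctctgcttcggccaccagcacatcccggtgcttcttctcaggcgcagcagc
The *Meg3* window shown holds 1 match and that of *Mest* 2, and none is in either *Gnas* window. Another *Meg3* window (chr12:109545148-109545447) and a more upstream *Mest* window (chr6:30733256-30733555) hold no match. Of the 41 windows used for the listed genes, from 26 genes, 10 (24.39%) held the 6 letters, against 11.61% of all windows of that length. *Impact* was left out of the 41, so this share does not cover every listed gene with an entry. The 10 include a pair of *Mest* windows that start 3 bases apart, and the windows of the listed genes held a median of 11 CG dinucleotides against 7.0 over all windows, so the shares are not matched for a motif that itself holds CG. A match describes the letters of the window, and whether the site is bound or methylated was not measured here.

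Several of the non-coding or intron-rich members carry microRNAs. *H19* holds miR-675 within an exon and *Mest* holds miR-335 within an intron. Their mature RefSeq sequences are shown with the seed, bases 2 to 8, in capitals, because the *H19* and *Mest* counts that follow measure the host RNA and not these products.
mmu-miR-675-5p: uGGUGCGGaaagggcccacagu
mmu-miR-675-3p: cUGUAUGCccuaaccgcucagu
mmu-miR-335-5p: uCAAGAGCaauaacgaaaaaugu
mmu-miR-335-3p: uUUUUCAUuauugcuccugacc
No seed is shared among these 4, and *Mirg*, at the far end of the *Meg3* transcription unit, spans 26 mature microRNAs.

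The level of most of these genes depended on the class in much the same way in both libraries. Over the 7 classes, 28 of the 30 genes had at least 50 UMIs in all, and 21 of the 28 were highest in the same class in both libraries: 8 in endothelium-like, 5 in neural crest-like, 4 in forebrain-like, 3 in mesenchyme-like and 1 in optic vesicle-like cells. In both libraries 22 of the 28 were lowest in erythrocyte-like cells, a class in which globins took 32.9% and 34.03% of all UMIs. Among all 12458 genes with at least 50 UMIs over the 7 classes, 55.6% had the same highest class in both libraries, 15% were highest in endothelium-like cells in both and 56.6% lowest in erythrocyte-like cells in both. These shares were not matched on UMIs and are not read as setting the members apart. *Phlda2* and *Slc22a18*, maternally expressed neighbours of *Cdkn1c* best known from the placenta, stayed at or below 4.10 CPM in every class.

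**Figure D1:**
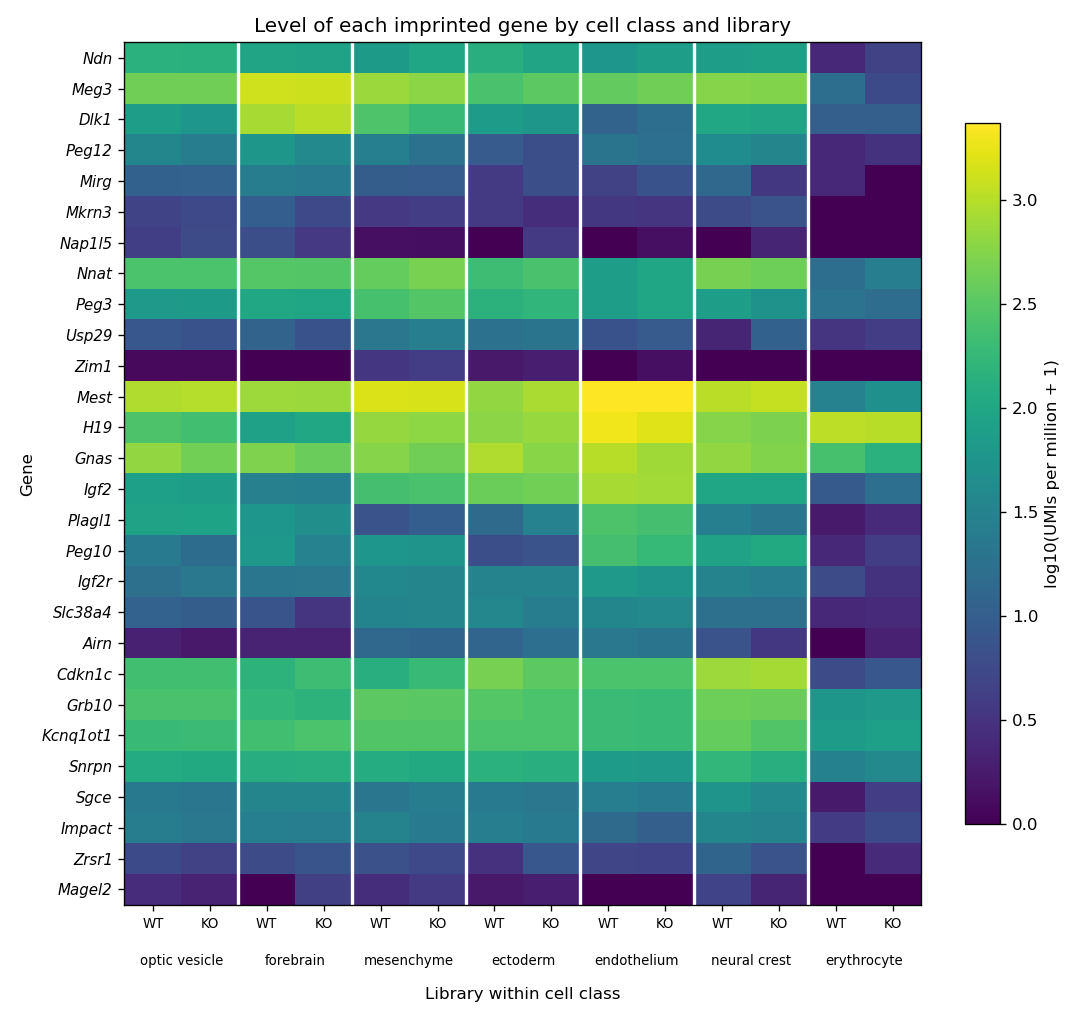
Levels of the 28 genes with at least 50 UMIs, in rows, in the 7 cell classes with the library labelled WT beside that labelled KO, in columns, as log10 of CPM plus 1. The endothelium-like columns hold the brightest *Mest* and *H19* cells, and the erythrocyte-like columns are dark for most genes except *H19*.

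The genes *Dlk1*, *Igf2*, *Plagl1* and *Peg10* stood at least 4-fold above their median class in their highest class in both libraries. *Dlk1*, a membrane protein of the Notch ligand family that holds back differentiation, reached 850 CPM [808, 893] in WT and 1048 [1010, 1088] in KO forebrain-like cells. Its next class was mesenchyme, at 271 and 182 CPM, and endothelium-like cells had 10.7 and 15.6 CPM. *Igf2*, the fetal growth factor, was highest in endothelium-like cells at 846 CPM [806, 888] in WT and 782 [748, 816] in KO, followed by ectoderm-like cells at 405 and 439 CPM and mesenchyme-like cells at 236 and 251 CPM. Forebrain-like cells had 28.1 and 27.5 CPM of *Igf2*, so the intervals of forebrain and endothelium lay far apart in each library. *Plagl1*, a zinc finger factor that regulates other imprinted genes, was at 267 and 239 CPM in endothelium-like cells and at 87.0 and 87.8 CPM in optic vesicle-like cells. Its level in mesenchyme-like cells was 6.23 and 9.12 CPM, below both of these in either library. *Peg10*, derived from a retrotransposon and needed in the placenta, was at 232 and 178 CPM in endothelium-like cells, at 85.0 and 111 CPM in neural crest-like cells and at 5.47 and 6.28 CPM in ectoderm-like cells.

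The growth-restraining genes of the maternal chromosome differed among themselves in their highest class, neural crest for *Cdkn1c* and *Grb10* and endothelium for *Igf2r* and *H19*. *Cdkn1c*, an inhibitor of cyclin-dependent kinases, was highest in neural crest-like cells at 736 CPM [678, 798] in WT and 812 [750, 877] in KO, with ectoderm-like cells next at 471 and 331 CPM. *Grb10*, an adaptor that dampens insulin and IGF receptor signalling, was also highest in neural crest-like cells, at 421 and 398 CPM, and was lowest in erythrocyte-like cells, at 59.1 and 65.9 CPM. *Igf2r*, the receptor that removes IGF2 for degradation, was at 63.8 and 53.7 CPM in endothelium-like cells and, among the classes other than erythrocytes, lowest in WT in optic vesicle-like cells at 16.7 CPM. *Meg3*, a maternally expressed non-coding RNA, was highest in forebrain-like cells at 1319 CPM [1267, 1372] in WT and 1295 [1252, 1339] in KO. In erythrocyte-like cells *Meg3* was at 15.3 and 4.71 CPM, and after thinning to 10000 UMIs per cell 2 of 38 and 1 of 52 such cells had a *Meg3* UMI, against 74 of 78 and 119 of 121 forebrain-like cells.

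The paternally expressed genes outside these domains fell into broad and narrow profiles. *Mest*, a putative hydrolase long used as a marker of embryonic mesoderm, was the most abundant member, at 2286 and 2327 CPM in endothelium-like, 1541 and 1441 CPM in mesenchyme-like and 922 and 979 CPM in optic vesicle-like cells. *Peg3*, a zinc finger protein, was highest in mesenchyme-like cells at 239 and 289 CPM, and its neighbour *Usp29* was highest there too, at 20.9 and 26.2 CPM. *Zim1*, the maternally expressed gene of that domain, reached 2.40 and 3.15 CPM in mesenchyme-like cells and was under 1 CPM in every other class. *Snrpn*, which encodes a protein of the splicing machinery, had similar levels in optic vesicle-like, forebrain-like and mesenchyme-like cells. They were 118 and 111 CPM, 125 and 127 CPM, and 119 and 111 CPM. *Snrpn* was highest in neural crest-like cells in WT, at 169 CPM, and in ectoderm-like cells in KO, at 132 CPM. It was lowest in erythrocyte-like cells, at 29.2 and 37.2 CPM. Its neighbours in the Prader-Willi syndrome domain were sparse apart from *Ndn* and *Peg12*. *Mkrn3*, a ubiquitin ligase, had 9.19 and 4.52 CPM in forebrain-like cells, from under 50 UMIs in the libraries together. In the 2 classes with at least 50 UMIs of *Mkrn3* it was higher in KO. Over all kept cells *Mkrn3* was at 3.99 and 3.78 CPM, a log2 ratio of KO over WT of -0.08 [-0.38, 0.23]. *Magel2* stayed at or below 3.75 CPM in every class. *Impact*, a regulator of translation under stress, was at 30.7 and 24.3 CPM in mesenchyme-like and 25.4 and 21.04 CPM in optic vesicle-like cells. *Slc38a4*, an amino acid transporter, had 34.2 and 37.7 CPM in endothelium-like cells against 6.49 and 2.26 CPM in forebrain-like cells. *Zrsr1*, a retrogene of a splicing factor, was under 12 CPM throughout. *Mirg*, maternally expressed and of the *Meg3* domain, followed *Meg3* in having its highest level in forebrain-like cells, 26.0 and 22.6 CPM.

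*H19* and *Igf2* lie 72.6 kb apart on chromosome 7 and are expressed from opposite parental chromosomes through shared enhancers, which makes the ratio of their UMIs in each class a measure of how they go together. In 6 classes the libraries held between 1.49 and 6.04 *H19* UMIs per *Igf2* UMI. The ectoderm-like cells had the lowest ratios, 1.49 [1.34, 1.66] in WT and 1.60 [1.43, 1.79] in KO, and neural crest-like cells the highest of these, 6.04 [4.73, 7.80] and 5.18 [4.05, 6.72]. Erythrocyte-like cells stood apart with 132.1 [73.6, 265] and 63.2 [44.4, 93.2]: *H19* was at 1061 and 1025 CPM there, and *Igf2* at 8.03 and 16.2 CPM. *Dlk1* and *Meg3*, 77.7 kb apart on chromosome 12, are paired in a similar way. There were 1.55 and 1.24 *Meg3* UMIs per *Dlk1* UMI in forebrain-like cells, 5.87 and 7.62 in optic vesicle-like cells, and 33.95 [22.04, 55.2] and 27.5 [20.1, 38.5] in endothelium-like cells.

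*Airn* is the paternally expressed non-coding RNA that silences *Igf2r* on the same chromosome in most tissues, whereas neurons are known to express *Igf2r* without it. Its level was 12.7 and 11.1 CPM in mesenchyme-like and 21.4 and 19.04 CPM in endothelium-like cells. Optic vesicle-like cells had 1.03 [0.495, 1.90] and 0.692 [0.332, 1.27] CPM, from 10 UMIs in each library, short of the 50 set for counting a gene. *Airn* was thus low in these cells in both libraries while *Igf2r* was present, at 16.7 and 21.04 CPM in optic vesicle-like cells. The UMIs of *Igf2r* per UMI of *Airn* were 16.2 [8.59, 34.4] and 30.4 [16.3, 64.0] in optic vesicle-like cells against 2.82 [2.25, 3.56] and 3.00 [2.40, 3.77] in mesenchyme-like cells. Forebrain-like and neural crest-like cells held 5 *Airn* UMIs or fewer per library, so their ratios have wide intervals.

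**Figure D2:**
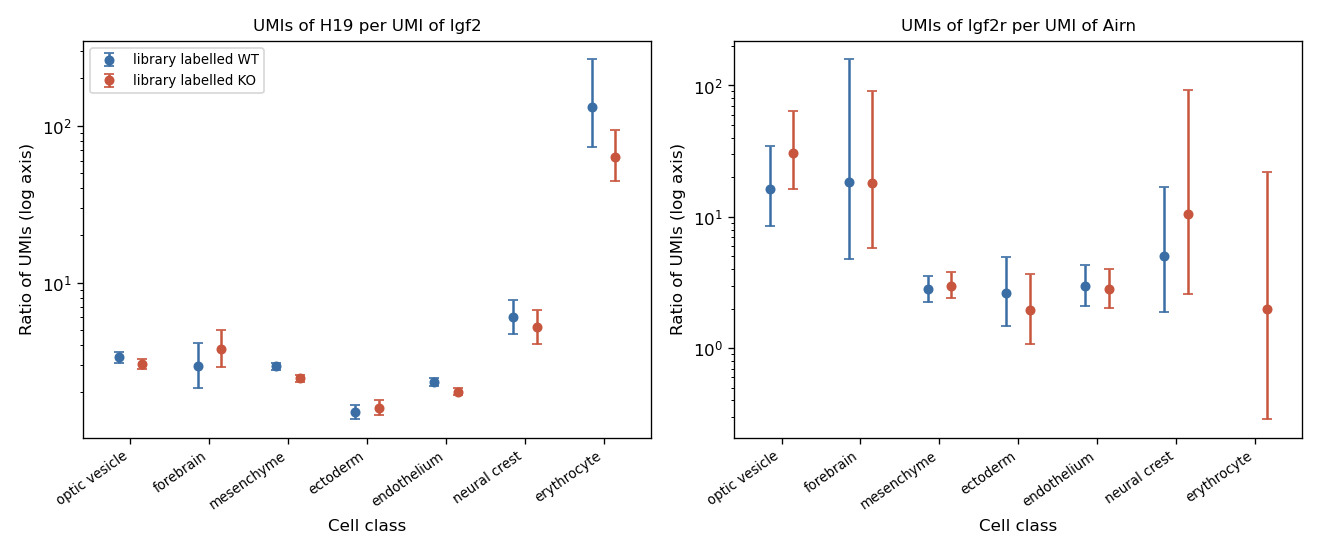
UMIs of *H19* per UMI of *Igf2* (left) and of *Igf2r* per UMI of *Airn* (right) on log axes in the 7 cell classes, with exact 95% intervals for counting error, for the libraries labelled WT (blue) and KO (red). Erythrocyte-like cells, at 132.1 and 63.2, lie above all other classes on the left. On the right the points of optic vesicle, forebrain and neural crest lie above those of mesenchyme, ectoderm and endothelium in each library. Each of these higher points rests on 10 *Airn* UMIs or fewer. The neural crest intervals overlap those of the lower classes, and the WT forebrain interval overlaps that of WT ectoderm. The WT erythrocyte ratio on the right has no *Airn* UMI and is not drawn.

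*Gnas*, whose difference between the libraries led to this list, was lower in the library labelled KO in all 7 classes. Its level in WT and KO was 662 and 446 CPM in optic vesicle-like cells, a log2 ratio of KO over WT of -0.57 [-0.62, -0.52]. In ectoderm-like cells, which hold the lens placode, it was 936 and 588 CPM, a log2 ratio of -0.67 [-0.81, -0.54]. Erythrocyte-like cells had the lowest level and the largest ratio, 245 and 142 CPM and -0.79 [-1.02, -0.55]. In the other 4 classes the values were closer. Endothelium-like cells had 1012 and 776 CPM, -0.38 [-0.47, -0.29], and mesenchyme-like cells 573 and 436 CPM, -0.40 [-0.46, -0.34]. Forebrain-like cells had 522 and 389 CPM, -0.42 [-0.55, -0.29], and neural crest-like cells 669 and 537 CPM, -0.31 [-0.50, -0.13]. Under 3 looser gates the ectoderm ratio was -0.58 to -0.54, no longer past 1.5-fold. The order of the 7 levels was the same in both libraries, from endothelium to erythrocytes, but neighbours overlapped in their intervals, in WT endothelium with ectoderm and neural crest with optic vesicle, and in KO ectoderm with neural crest and optic vesicle with mesenchyme.

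Of the 30 genes, 8 had at least 50 UMIs in the libraries together in all 7 classes, and 1 of the 8, *Gnas*, was lower in KO in all of them, while none was higher in all. Among the 2875 genes counted in all 7 classes, 4.83% were lower in all and 4.77% higher in all. The list was chosen by *Gnas* and *Meg3*, so the count of members is not read against these shares. Without *Gnas* no member was lower in all 7. Both libraries were also split into 20 clusters made without the imprinted genes. *Gnas* was below WT in all 20 clusters, with the interval below 0 in 19 of them, a median log2 ratio of -0.55 and a range of -1.24 to -0.16. Of the 448 genes counted in all 20 clusters, 20 (4.46%) were lower in KO in all. These 20 include *Gnas*, ribosomal protein genes such as *Rpl39*, *Rps27* and *Rps28*, the actin gene *Actb*, the splicing factor *Srsf2* and the mitochondrial *mt-Nd3*. Only abundant genes reach 50 UMIs in all 20 clusters, so the abundance of these genes follows from that limit. The share of ribosomal protein genes among the 448 was not taken. *Nespas*, the antisense RNA of the *Gnas* domain that overlaps its exons, was at 19.4 and 23.5 CPM in optic vesicle-like cells, log2 ratio 0.27 [0.01, 0.54], and at 22.3 and 18.3 CPM in mesenchyme-like cells, -0.28 [-0.59, 0.02]. In endothelium-like cells *Nespas* had 21.4 and 11.8 CPM, -0.86 [-1.58, -0.16].

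**Figure D3:**
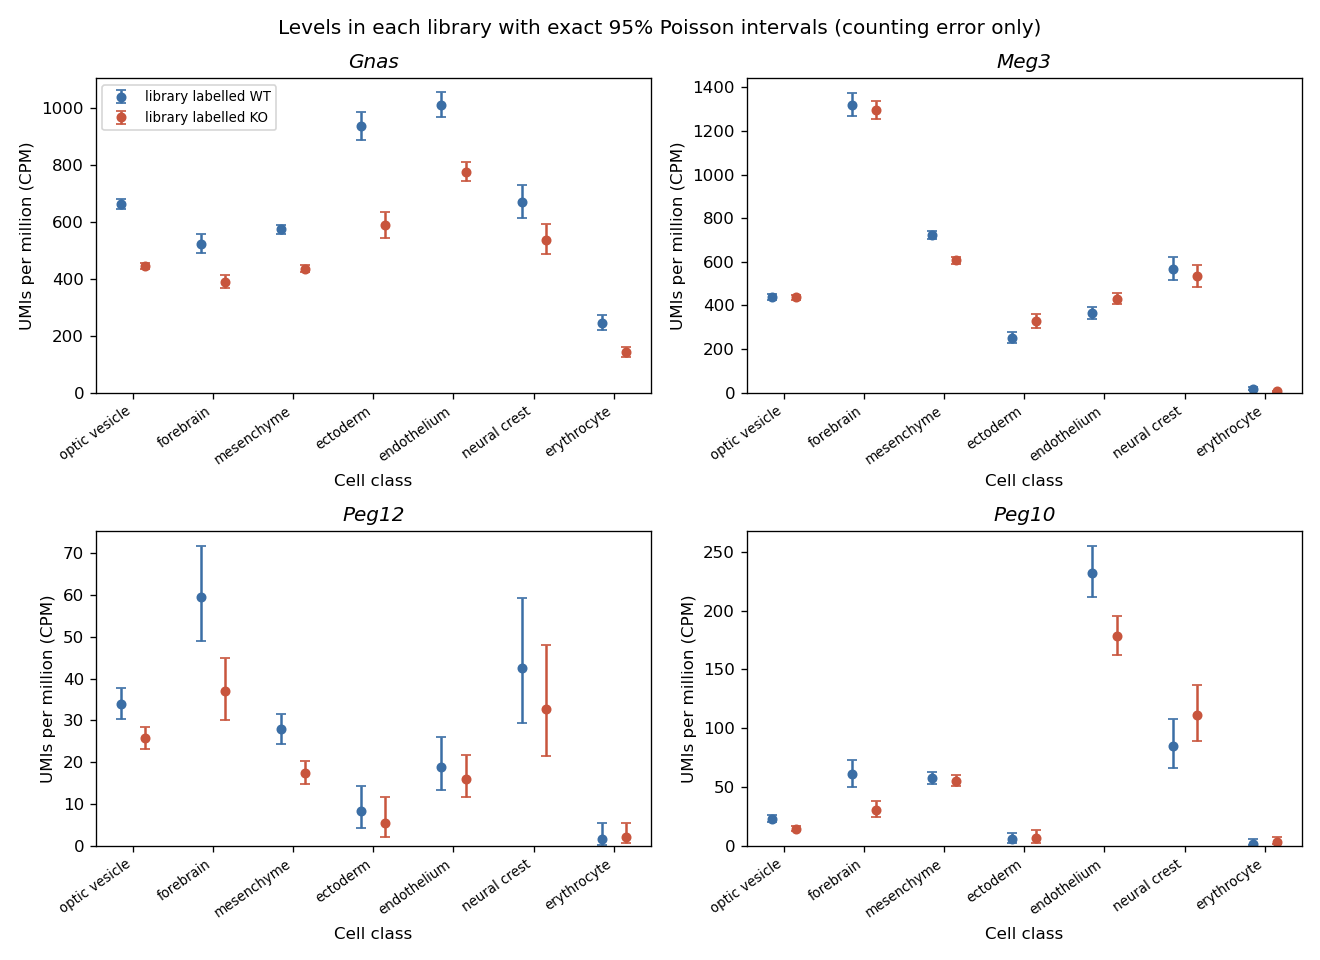
Levels of *Gnas*, *Meg3*, *Peg12* and *Peg10* in CPM in the 7 cell classes, with exact 95% Poisson intervals, for the libraries labelled WT (blue) and KO (red). The red *Gnas* point lies below the blue point in all 7 classes, as at 446 against 662 in optic vesicle-like cells, and the *Meg3* points change sides between classes.

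*Meg3* had no common direction. Its levels in WT and KO were 437 and 436 CPM in optic vesicle-like cells and 1319 and 1295 CPM in forebrain-like cells, log2 ratios of 0.00 [-0.06, 0.05] and -0.03 [-0.10, 0.05]. Mesenchyme-like cells were lower in KO, with 724 and 606 CPM, -0.26 [-0.31, -0.21]. Ectoderm-like cells were higher in KO, with 250 and 326 CPM, 0.38 [0.17, 0.60], and so were endothelium-like cells, with 364 and 429 CPM, 0.24 [0.10, 0.38]. The ectoderm ratio fell to 0.09 when every cell was thinned to 10000 UMIs, and 32 of 66 WT and 32 of 51 KO ectoderm-like cells then had a *Meg3* UMI. Neural crest-like cells had 566 and 532 CPM, -0.09 [-0.28, 0.11], but 0.38 when cells were taken from the neural crest cluster in place of the gate. *Meg3* was lower in KO in 8 and higher in 10 of the 18 clusters where it was counted. Over all kept cells it was at 599.8 and 589.3 CPM, a log2 ratio of -0.03.

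*Peg12* and *Peg10*, both paternally expressed, were past 1.5-fold lower in KO in 2 classes each. *Peg12*, a retrogene of the Prader-Willi syndrome domain related to a regulator of WNT signalling, had 59.5 and 36.9 CPM in forebrain-like cells, -0.69 [-1.09, -0.28], and 27.8 and 17.3 CPM in mesenchyme-like cells, -0.68 [-0.98, -0.39]. It was below WT in all 5 classes where it was counted, among them optic vesicle with 33.8 and 25.7 CPM, and in 9 of 10 clusters. Weighted to the cluster makeup of the WT cells, its forebrain ratio was -0.19, and under looser gates between -0.46 and -0.38. *Peg10* had 22.8 and 14.3 CPM in optic vesicle-like cells, -0.67 [-0.95, -0.39], and 60.6 and 30.5 CPM in forebrain-like cells, -0.99 [-1.42, -0.56]. Its forebrain ratio was between -0.44 and -0.39 under looser gates, and it was lower in KO in 11 of 14 clusters. Neural crest-like cells went the other way, with 85.0 and 111 CPM, 0.38 [-0.09, 0.86]. *Sgce*, which starts 98 bases from *Peg10* on the other strand and encodes a sarcoglycan, had log2 ratios of -0.14 [-0.40, 0.12] and 0.01 [-0.48, 0.50] in the same classes. The intervals of *Peg10* and *Sgce* thus did not overlap in forebrain-like cells under the gate used here. In the largest forebrain cluster they did overlap, at -0.83 to -0.33 for *Peg10* and -0.37 to 0.26 for *Sgce*.

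Counted over all measured members, few passed 1.5-fold. In optic vesicle-like cells 1 of 25 counted genes was lower (*Peg10*) and 1 higher (*Nap1l5*, 3.20 and 4.91 CPM, 31 and 71 UMIs), where 1.64% and 1.5% of all 10714 genes counted there were lower and higher. The *Nap1l5* interval, -0.01 to 1.28, holds 0, and its ratio was 0.14 to 0.51, short of 1.5-fold, with the gate lead doubled, clusters, the mean of scaled cells, thinning, removal of the 5% of cells with the most UMIs and the 3 looser gates. In forebrain-like cells 2 of 20 were lower and none higher, against 2.65% and 3.36% of all genes. Mesenchyme-like cells had 1 of 26 lower (*Peg12*) and none higher, against 2.22% and 1.77%. In ectoderm-like cells 1 of 18 was lower (*Gnas*) and 1 higher, against 4.75% and 3.57%. The higher one was *Plagl1*, at 13.7 CPM [8.35, 21.1] and 30.5 CPM [21.1, 42.6] from 20 and 34 UMIs. In optic vesicle-like cells *Plagl1* was at 87.0 and 87.8 CPM. Optic vesicle markers summed to 437.7 and 493.2 CPM in ectoderm-like cells, and the part of such RNA in the *Plagl1* ratio was not tested. With clusters, the gate lead doubled, thinning and some looser gates, no member was past 1.5-fold higher in ectoderm-like cells. *Plagl1* was then short of 1.5-fold or had under 50 UMIs. Of 21 in endothelium-like cells and 17 in neural crest-like cells none passed in either direction, where 3.93% and 3.11% and then 2.8% and 5.72% of all genes did. Erythrocyte-like cells had 1 of 8 lower (*Gnas*) and 2 higher (*Mest* and *Nnat*, at 41 and 92 and at 21 and 50 UMIs), against 3.86% and 2.66%. Without the 5% of cells with the most UMIs the *Mest* ratio there changed from 0.69 to -0.56, so the value turns on those cells. Among ungated cells 1 of 26 was higher, *Airn* at 1.72 and 3.98 CPM, and none lower, against 2.65% and 1.5%. In all, 135 pairs of a gene and a class were counted in the 7 classes, and 6 were past 1.5-fold lower and 4 higher. Over all genes the shares ran from 1.64% to 4.75% lower and from 1.5% to 5.72% higher in these classes. No share of all genes was pooled over the classes, so the totals of pairs are not read against one. Of the 30 genes, 3 were counted in no class (*Phlda2*, *Slc22a18* and *Magel2*). Each share of the members past 1.5-fold rests on 2 genes or fewer and is not read as differing from that of all genes. *Gnas*, which had led to the list, was the only member past 1.5-fold lower in ectoderm-like and in erythrocyte-like cells.

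**Figure D4:**
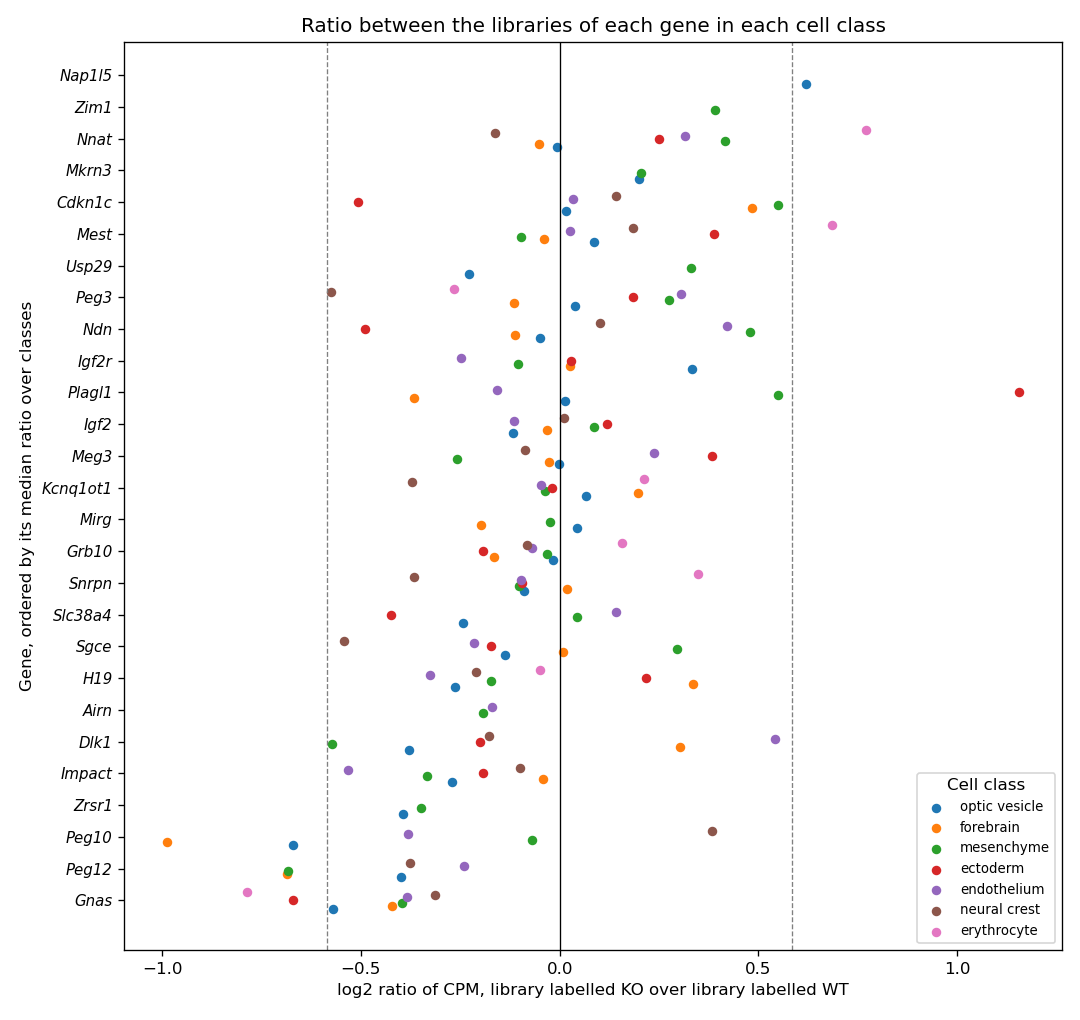
Log2 ratio of CPM, the library labelled KO over that labelled WT, of each gene (rows, ordered by median) in each class where it had at least 50 UMIs (coloured points), with dashed lines at 1.5-fold. Most points lie between the dashed lines, all 7 *Gnas* points lie left of 0, and the *Plagl1* point of ectoderm-like cells at 1.16 lies farthest right.

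The median log2 ratio of the counted members is set here beside that of all genes in each class: -0.05 against -0.01 in optic vesicle-like, -0.04 against 0.04 in forebrain-like and -0.03 against 0.00 in mesenchyme-like cells. It was -0.06 against -0.01 in ectoderm-like and -0.10 against 0.00 in endothelium-like cells. In neural crest-like cells it was -0.16 against 0.05, with a members' median of 0.13 after thinning, and in erythrocyte-like cells 0.19 against -0.02 over 8 genes. The members in these medians include *Gnas* and, outside erythrocyte-like cells, *Meg3*, by which the list was chosen. Medians were also taken by the parental chromosome listed as expressed for each gene. The same listing was used in all classes and need not hold in each of them. The medians were 0.01 over 6 maternally and -0.10 over 18 paternally expressed genes in optic vesicle-like cells. In mesenchyme-like cells they were -0.03 over 7 and 0.00 over 18. The summed level of the maternally expressed genes was 1205 and 1164 CPM in optic vesicle-like cells, and that of the paternally expressed genes 2071 and 2077 CPM. Which parental chromosome a UMI came from was not measured.

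Of 25 members counted in 2 or more classes, 7 had an interval above 0 in 1 class and below 0 in another: *Meg3*, *Dlk1*, *H19*, *Cdkn1c*, *Kcnq1ot1*, *Ndn* and *Mest*. The same held for 5.93% of the 10105 genes counted in 2 or more classes. Members with more UMIs have narrower intervals, the shares were not matched on UMIs, and *Meg3* helped to choose the list. *Dlk1* was lower in KO mesenchyme-like cells, 271 and 182 CPM, -0.57 [-0.66, -0.48], and higher in KO forebrain-like cells, 850 and 1048 CPM, 0.30 [0.21, 0.39]. The forebrain-like cells differed in makeup, with 19 WT and 11 KO cells in 1 cluster and 50 and 107 in another. Over all cells of these clusters the *Dlk1* ratio was 0.68 [0.51, 0.85] and 0.08 [0.02, 0.15]. *Cdkn1c* was higher in KO mesenchyme-like cells, 131 and 192 CPM, 0.55 [0.44, 0.66], and in forebrain-like cells, 150 and 210 CPM, 0.48 [0.27, 0.70], the latter 0.11 after thinning. In ectoderm-like cells *Cdkn1c* was lower in KO, 471 and 331 CPM, -0.51 [-0.69, -0.32], with a ratio of -0.28 after thinning. *Ndn*, an inhibitor of growth active in neurons, was likewise higher in KO mesenchyme-like and lower in KO ectoderm-like cells, with 68.2 and 94.99 CPM in mesenchyme-like, 0.48 [0.33, 0.63], and 127 and 90.6 CPM in ectoderm-like cells, -0.49 [-0.85, -0.13]. *Nnat*, a membrane protein of developing brain, had 371 and 495 CPM in mesenchyme-like cells, 0.42 [0.35, 0.48]. The mesenchyme-like cells of the libraries were not made up alike: 1 cluster held 5 of the WT and 75 of the KO mesenchyme-like cells. With KO weighted to the WT makeup the mesenchyme ratio was -0.54 for *Dlk1*, 0.35 for *Cdkn1c* and 0.29 for *Nnat*, that of *Mest* went from -0.10 to 0.03, and that of *Peg10* from -0.07 to -0.53.

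**Figure D5:**
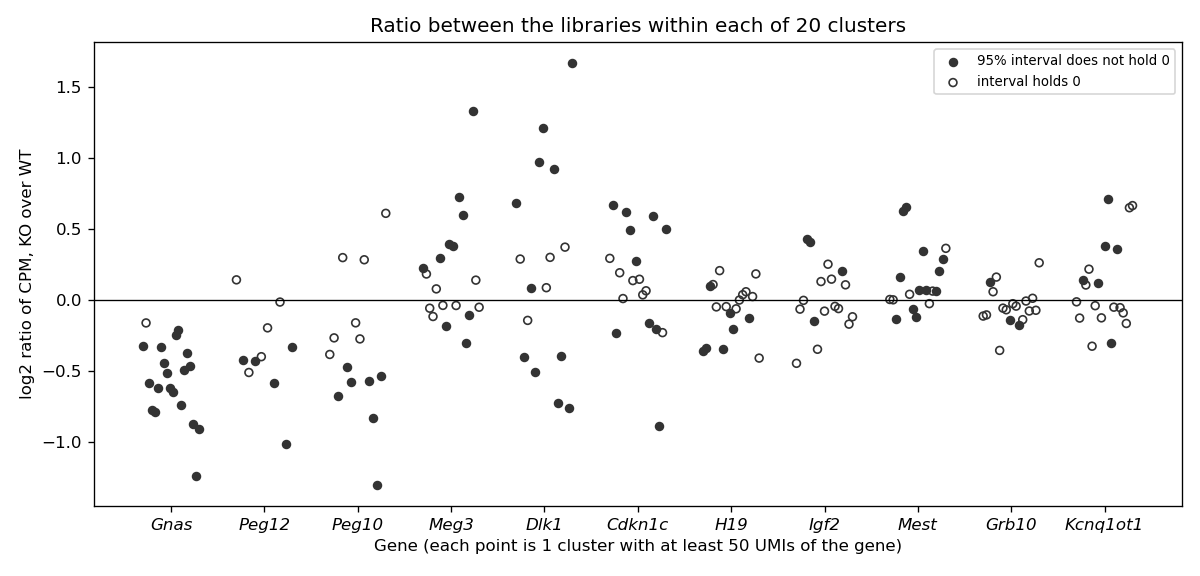
Log2 ratio of CPM, KO over WT, within each of 20 clusters for 11 of the genes, each point being 1 cluster with at least 50 UMIs of the gene, filled where the 95% counting interval does not hold 0. All 20 *Gnas* points lie below 0, from -1.24 to -0.16, and the *Dlk1* and *Meg3* points lie on both sides.

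Other genes of imprinting and IGF signalling came from lists chosen with the data known. Of the 14 genes of imprint maintenance, 12 were counted in forebrain-like cells, with none lower and 2 higher, where 3.36% of all genes were higher. *Dnmt1*, the maintenance DNA methyltransferase, had 64.4 and 99.5 CPM there, 0.63 [0.31, 0.95], and *Dnmt3a*, a de novo methyltransferase, 21.6 and 36.6 CPM, 0.76 [0.21, 1.33]. In ectoderm-like cells 2 of 11 were lower, against 4.75% of all genes: *Dnmt3b*, 79.3 and 47.5 CPM, -0.74 [-1.24, -0.26], and *Arid4a*, 31.5 and 17.04 CPM, -0.88 [-1.74, -0.09]. In erythrocyte-like cells 2 of 8 were lower, against 3.86%. They were *Trim28*, the partner through which ZFP57 silences, 71.5 and 38.7 CPM, -0.89 [-1.34, -0.44], and *Uhrf1*, which brings DNMT1 to replicating DNA, 70.1 and 44.5 CPM, -0.66 [-1.09, -0.22]. In mesenchyme-like cells 1 of 13 was higher, *Zfp445*, 3.00 and 5.45 CPM, and in endothelium-like cells 1 of 12 was higher, *Dnmt3a*, 27.6 and 46.1 CPM, against 1.77% and 3.11%. None of 13 in optic vesicle-like and none of 10 in neural crest-like cells passed.

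Of the other imprinted genes, 35 listed and 34 in the tables, 9 to 21 were counted per class and at most 1 passed in each direction. Lower were *Dio3* in mesenchyme-like cells, 1 of 20 against 2.22% of all genes, and *Nespas* in endothelium-like cells, 1 of 15 against 3.93%. Higher were *Dio3* in optic vesicle-like cells, 1 of 21 against 1.5%, *Trappc9* in mesenchyme-like cells, 1 of 20 against 1.77%, *Inpp5f* in ectoderm-like cells, 1 of 15 against 3.57%, and *Cd81* in erythrocyte-like cells, 1 of 9 against 2.66%. The intervals of *Trappc9*, -0.19 to 1.60, and *Cd81*, -0.23 to 1.46, hold 0. *Dio3*, the thyroid hormone deiodinase of the *Dlk1* domain, had 6.40 and 11.004 CPM in optic vesicle-like cells, 0.78 [0.35, 1.23], and 3.84 and 2.10 CPM in mesenchyme-like cells, -0.87 [-1.75, -0.02].

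Of the 12 genes of the IGF axis, 1 of 8 counted in forebrain-like cells was higher, against 3.36% of all genes. This was *Igfbp5*, an IGF-binding protein, with 79.0 and 128 CPM, 0.69 [0.41, 0.98]. In mesenchyme-like cells 1 of 11 was higher, *Igfbp5*, with 13.2 and 21.2 CPM, 0.68 [0.34, 1.03], and 1 lower, *Irs1*, an adaptor of insulin and IGF receptors, with 18.7 and 12.4 CPM, -0.60 [-0.95, -0.24]. In endothelium-like cells 1 of 9 was higher, *Igf1*, with 67.9 and 102.8 CPM, 0.60 [0.29, 0.91], and 1 lower, the insulin receptor gene *Insr*, with 15.3 and 9.52 CPM, -0.69 [-1.51, 0.13]. Of all genes 1.77% and 2.22% were higher and lower in mesenchyme-like cells and 3.11% and 3.93% in endothelium-like cells. No gene of the axis passed in the other 4 classes, and in ectoderm-like cells *Igfbp5* was at 475 and 390 CPM, -0.28 [-0.46, -0.11]. *Igf2* itself had ratios between -0.12 and 0.12 in the 6 classes where it was counted.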

How the data were processed

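The deposited values are whole-number UMI counts per gene and cell, made by the authors with Cell Ranger (build mm10, GRCm38, per the labels) and not scaled per cell. The libraries had been combined by the authors with Cell Ranger's aggregation step, which can subsample reads between libraries. Whether the counting used strand is not given in the sources used here. Whether reads of overlapping genes on opposite strands, as at *Gnas*, *Mest* and *Kcnq1ot1*, were kept apart was therefore not checked. Of the 32 genes, 12 have such an overlap.

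Barcodes with under 1500 or over 8000 genes, or with over 5% of UMIs from mitochondrial genes, were left out, which leaves 4084 cells, the number the study's methods state; those write the mitochondrial limit as 0.05%, read here as a fraction. Marker levels, log2 of UMIs per 10000 plus 1, were centred and scaled over all cells and averaged by class. A cell joined its best class if the score was at least 0.5 and led the next by 0.5. This gate was set after the data, member values included, had been seen, and 3 looser gates were looked at first (lead and minimum of 0.25, of 0.2, and lead 0.25 with minimum 0). UMIs were summed per class and library and divided by all UMIs of those cells (CPM), with exact Poisson intervals for levels and exact conditional binomial intervals for ratios. A gene was counted in a class with at least 50 UMIs in the libraries together. A count of 0 allows up to 3 UMIs, 1.13 to 3.78 CPM in the smaller classes and less in the others. As each genotype has 1 library, no p-value was computed. Shares of cells were taken after thinning to 10000 UMIs, which left out 139 and 194 cells. The 20 clusters came from k-means on 40 principal components of 1500 variable genes. No doublet caller was run; the 5% of cells with the most UMIs were left out instead as an alternative.

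The members, markers and gene lists were chosen with earlier results of these data known. Named in full were *Gnas*, *Meg3*, members past 1.5-fold in at least 2 classes in 1 direction, and members whose highest class was at least 4-fold over the median class in both libraries; other genes named with values were chosen after their values were seen. Coordinates are those of GENCODE M21, which held 27645 of the 27998 identifiers, and sequences are from RefSeq (GRCm38.p6). The ratio statistics were tested on counts simulated with counting error only. That test does not cover variation between cells or between embryos. Python 3.11.15 was used with numpy 2.4.6, scipy 1.17.1, pandas 2.3.3, scanpy 1.11.5 and scikit-learn 1.9.0. The alternatives changed the cell filter, the gate, clusters in place of the gate, the scaling, the depth, the UMI minimum, the fold and the cell makeup.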

Additional observations from a re-analysis of the deposited data

Results flagged for a closer look

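The 7 genes listed here moved in opposite directions in different cell classes of the library labelled KO against that labelled WT, with counting intervals that exclude 0 on both sides. With 1 embryo per genotype the difference between classes was not tested. They are 7 of 25 members counted in at least 2 classes, and 5.93% of all genes counted in at least 2 classes show such a pattern. The shares were not matched on UMIs, and *Meg3* helped to choose the list, so they are not read as differing. The log2 ratio of *Meg3* was -0.26 in mesenchyme-like cells, 0.38 in ectoderm-like and 0.24 in endothelium-like cells. That of *Dlk1* was -0.38 in optic vesicle-like, -0.57 in mesenchyme-like and 0.30 in forebrain-like cells. *H19* had -0.26 in optic vesicle-like, -0.17 in mesenchyme-like, -0.33 in endothelium-like and -0.21 in neural crest-like cells, and 0.34 in forebrain-like and 0.22 in ectoderm-like cells. For *Cdkn1c* the ratio was -0.51 in ectoderm-like, 0.48 in forebrain-like and 0.55 in mesenchyme-like cells. *Kcnq1ot1*, the non-coding RNA of the *Cdkn1c* domain, had -0.37 in neural crest-like and 0.20 in forebrain-like cells. *Ndn* had -0.49 in ectoderm-like, 0.48 in mesenchyme-like and 0.42 in endothelium-like cells. The ratio of *Mest* was -0.10 in mesenchyme-like cells, 0.086 in optic vesicle-like, 0.39 in ectoderm-like, 0.69 in erythrocyte-like and 0.18 in neural crest-like cells. Some of these directions depend on the processing. The mesenchyme ratio of *Mest*, its only one below 0 with an interval that excludes 0, was 0.034 with KO weighted to the WT makeup, and its erythrocyte ratio was -0.56 without the 5% of cells with the most UMIs. That of *H19* was -0.46 in forebrain with clusters in place of the gate and 0.15 in neural crest after thinning, and the ectoderm ratio of *Meg3* was 0.086 after thinning.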

How the results depend on the processing

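No paired analysis was possible because each genotype has 1 library, and leaving out a replicate was not possible for the same reason. Of the log2 ratios recomputed for named genes, 1391 stayed within the counting interval, 105 left it without a change of sign in a ratio whose interval excluded 0, and 7 such ratios changed sign. Counts of members past the fold are small, so a move by 1 gene is a large relative change, and the cause of the moves was not tested. Shares over all genes are given above for the main settings only. The member counts under other settings that follow have no such share beside them and are not read as exceeding it. The looser gates and the makeup weighting were chosen after seeing the data. With clusters in place of the gate, the members lower in KO numbered 0 in optic vesicle, 4 in forebrain and 1 in neural crest, and those higher 0 in optic vesicle and ectoderm and 1 in neural crest. *Meg3* was 0.081 in optic vesicle, 0.063 in forebrain and 0.38 in neural crest. *H19* was -0.46 in forebrain, reversed. *Plagl1* was -0.018 in mesenchyme, reversed. With the gate lead doubled, the members lower in KO numbered 2 in optic vesicle and 1 in endothelium and neural crest, and those higher 2 in mesenchyme and 0 in ectoderm. The members' median log2 ratio was -0.23 in forebrain. *Gnas* was -0.63 in optic vesicle and -0.23 in forebrain. *Meg3* was 0.14 in optic vesicle and -0.17 in forebrain. With the mean of scaled cells, the members lower in KO numbered 3 in optic vesicle, and those higher 0 in optic vesicle and 1 in mesenchyme. *Gnas* was -0.62 in optic vesicle. After thinning, the members lower in KO numbered 4 in optic vesicle and 1 in endothelium, and those higher 0 in optic vesicle and ectoderm and 1 in mesenchyme and erythrocytes. The members' median log2 ratio was -0.23 in forebrain and 0.13 in neural crest. *Gnas* was -0.49 in endothelium. *Meg3* was -0.069 in optic vesicle and 0.086 in ectoderm. *Igf2* was 0.029 in endothelium, reversed. *H19* was 0.15 in neural crest, reversed. Without the 5% of cells with the most UMIs, the members lower in KO numbered 3 in optic vesicle, and those higher 0 in optic vesicle and erythrocytes. *Gnas* was -0.64 in optic vesicle. *Mest* was -0.56 in erythrocytes, reversed. With lead and minimum 0.25, the members lower in KO numbered 0 in forebrain and ectoderm and 1 in neural crest, and those higher 0 in optic vesicle, ectoderm and erythrocytes and 1 in forebrain. *Meg3* was 0.32 in neural crest. With lead and minimum 0.2, the members lower in KO numbered 0 in forebrain and ectoderm and 1 in neural crest, and those higher 0 in optic vesicle and erythrocytes and 1 in forebrain and endothelium. *Meg3* was 0.30 in neural crest. With lead 0.25 and minimum 0, the members lower in KO numbered 0 in forebrain and ectoderm and 1 in neural crest, and those higher 0 in optic vesicle, ectoderm and erythrocytes. *Meg3* was 0.32 in neural crest. With 25% more or 20% less in KO as the limit, the members lower in KO numbered 5 in optic vesicle, mesenchyme and neural crest and 4 in forebrain, ectoderm and endothelium, and those higher 2 in optic vesicle, forebrain and endothelium, 6 in mesenchyme, 3 in ectoderm and 1 in neural crest. Past 2-fold, the members lower in KO numbered 0 in optic vesicle, forebrain, mesenchyme, ectoderm and erythrocytes, and those higher 0 in optic vesicle and erythrocytes. With no mitochondrial limit, the members higher in KO numbered 1 in forebrain. With KO weighted to the WT makeup, the members lower in KO numbered 1 in forebrain, endothelium and neural crest, and those higher 1 in neural crest. The members' median log2 ratio was 0.020 in forebrain. *Meg3* was 0.053 in forebrain, -0.19 in mesenchyme and 0.38 in neural crest. *Igf2* was 0.042 in endothelium, reversed. *Mest* was 0.034 in mesenchyme, reversed. With a minimum of 20 UMIs, the members lower in KO numbered 4 in forebrain and 2 in erythrocytes, and those higher 1 in mesenchyme and endothelium. With ratios centred on all genes, the members lower in KO numbered 2 in neural crest. Embryo and genotype cannot be told apart at this design, and genes with few UMIs have wide intervals.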
